A study of Canis lupus with 20 samples.

Results

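The 36 genes described here encode chains of the collagens, and were found as every gene whose symbol in the array annotation has the form COL, a type number, A and a chain number. They are 36 of 15115 genes named by at least 1 probe set with a single symbol, and hold 97 of the 43035 probe sets of the canine array. For each gene the probe set with the highest mean over all 20 arrays was used. By collagen type, 10 genes are fibrillar, 6 encode basement membrane (type IV) chains and 20 are of other types: 8 fibril-associated (FACIT), 4 transmembrane, 3 beaded-filament (type VI), 2 network-forming, 1 anchoring-fibril, 1 multiplexin and 1 unclassed. Heart tissue came from normal dogs killed 12 weeks after surgery, which either took out the right kidney (uninephrectomy) or was a sham, with 5 arrays each from left atrium after uninephrectomy, left atrium after sham surgery, left ventricle after uninephrectomy and left ventricle after sham surgery. Each sample was run on 1 array, and the labels do not say which atrial and ventricular samples came from the same dog. The labels give no age for the dogs, and the p-values measure the spread between these samples.

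Collagens are trimers of alpha chains wound into a triple helix, made in the heart mainly by fibroblasts. Types I and III build the fibrils that give the myocardial interstitium its tensile strength, type V lies within those fibrils and sets their diameter, and the FACIT types attach to fibril surfaces. Type IV forms the sheet-like network of the basement membranes around cardiomyocytes, smooth muscle and capillaries. A change in deposited collagen need not show in messenger RNA, because secretion, cross-linking and breakdown also set the amount of matrix.

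The deposited values are log2 signals per probe set. Array medians lay between 2.33 and 2.39 and upper quartiles between 5.10 and 5.53, so a signal below log2 3 in every group mean is called dim here. The number of arrays, 5 in each group, limits the precision. The chamber labels held: MYL7, the atrial myosin light chain, had 14.27, 14.23, 14.17, 14.33 and 14.20 in atria after uninephrectomy, against 11.70, 11.55, 11.78, 11.99 and 12.01 in the ventricles, while the ventricular light chain MYL2 lay between 2.70 and 7.40 in the 10 atria, highest in array 4 after uninephrectomy, and between 14.27 and 15.02 in the 10 ventricles. The 3' gap, a measure of RNA quality (control probe sets near the 3' end minus those further upstream, larger with degraded RNA), averaged 1.10 in atria after uninephrectomy, 1.19 in sham atria, 1.14 in ventricles after uninephrectomy and 1.42 in sham ventricles, and the highest value, 1.83, was sham ventricular array 3. Since this gap moved with chamber in the sham dogs, sham calls of members lost with it as a covariate are given beside the gene. Chamber differences are log2 values in atrium minus ventricle, tested with limma over all 30047 probe sets whose mean was above the dimmest 30%, and called at an adjusted p (Benjamini-Hochberg) below 0.05. In bulk tissue, more cells of a type and more RNA per cell cannot be told apart.

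Of the 36 genes, 32 passed that filter and were tested. The 4 left out, COL4A3, COL6A6, COL7A1 and COL8A2, had group means between 1.44 and 1.81. A further 8 collagen genes on a list of 44 had no probe set with a single symbol and were not analysed here. Of the 32 tested genes 17 were dim, and 15 were not. Among the 15 were the main type I, III, V and IV chains COL1A1, COL1A2, COL3A1, COL5A1, COL5A2, COL4A1 and COL4A2. The type VI chains COL6A1 and COL6A3, which are abundant in heart matrix, were dim on this array, with group means of 2.75 ± 0.18, 2.58 ± 0.11, 2.57 ± 0.08 and 2.62 ± 0.10 for COL6A1 (SD, n = 5; atria after uninephrectomy, sham atria, ventricles after uninephrectomy, sham ventricles). Levels of different probe sets are not comparable, so this does not rank the types by abundance.

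The atrium had more collagen messenger RNA than the ventricle for the type I and III chains, for the type V chains COL5A1 and COL5A2, for the FACIT COL14A1 and for the basement membrane chain COL4A6, in both surgery groups. In uninephrectomized dogs 10 of 32 collagen genes were called higher in atrium and 3 lower. Over all tested probe sets the shares were 14.7% higher and 12.5% lower. In sham dogs 10 were called higher and 0 lower, where the tested probe sets gave 11.2% higher and 9.62% lower. Among the 15 collagens that were not dim, 8 were called higher and 1 lower after uninephrectomy (22.2% and 17% of the not-dim probe sets), and 8 and 0 in sham dogs (17.1% and 13.6%). The median difference over the 32 genes was 0.17 after uninephrectomy and 0.09 in sham dogs, against -0.02 and -0.01 over all tested probe sets. Among the not-dim collagens it was 0.73 and 0.60, against 0.03 and 0.03 over all tested genes that were not dim. A gene counts as not dim if any group mean reaches log2 3. COL16A1 did so only in the atria, and its own difference is the median after uninephrectomy. At an unadjusted p below 0.05 there were 17 and 12 genes of 32 in either direction (38.3% and 32.9% of probe sets). The 5 atrial and 5 ventricular arrays did not overlap, with the atrium higher, for 9 genes after uninephrectomy (11.4% of probe sets) and 8 genes in sham dogs (7.59%).

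The same 9 genes were called higher in atrium in both surgery groups: COL1A1, COL1A2, COL3A1, COL5A1, COL5A2, COL14A1, COL4A5, COL4A6 and COL21A1. COL4A5 passed the filter on dim probe sets only through its atrial signal. Calls shared in direction made up 69.2% of the collagen calls in uninephrectomized dogs and 90% of those in sham dogs. Over all tested probe sets the shares were 62% and 81.1%, so the overlap of the collagens was near that of the array as a whole.

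**Figure D1:**
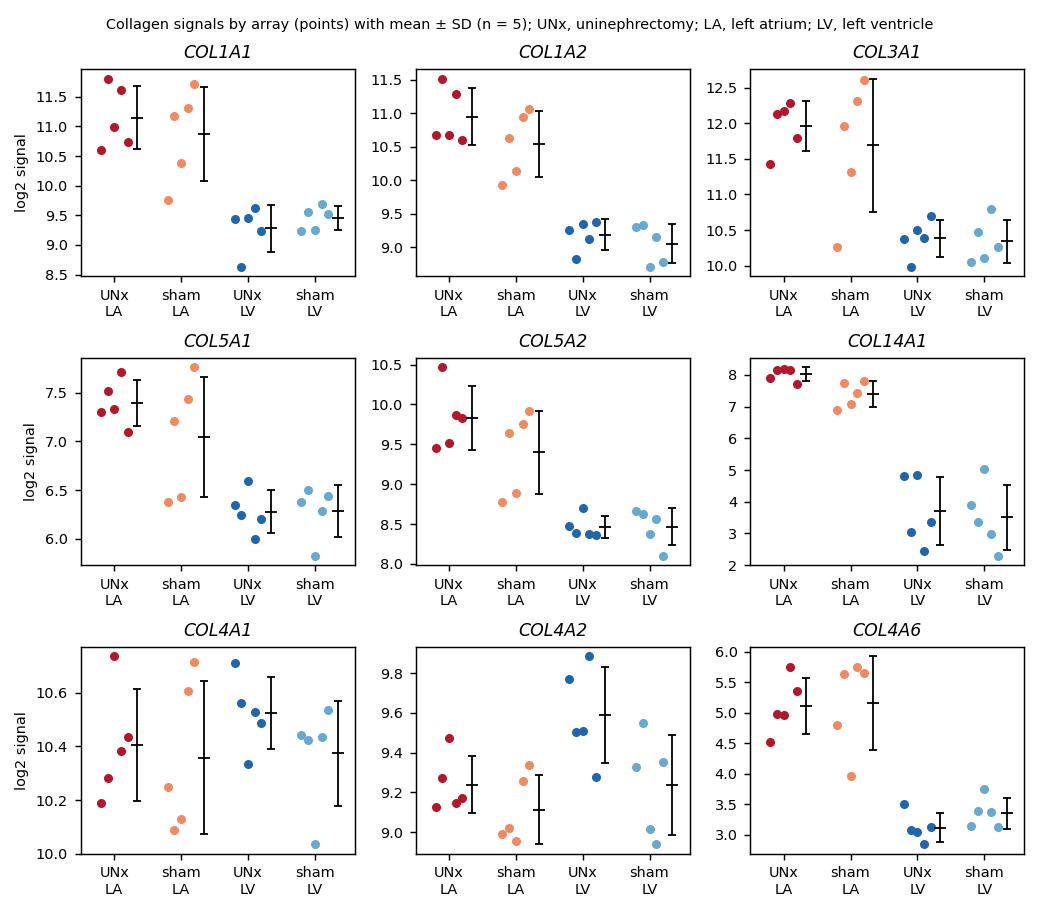
Log2 signal of 9 collagen genes on each of the 20 arrays (points, in the order of the array number) with the mean ± SD of each group of 5 (black). UNx is uninephrectomy, LA left atrium and LV left ventricle, and each panel has its own vertical scale, which does not start at 0. The 5 fibrillar chains, COL14A1 and COL4A6 sit higher in both atrial groups, and COL4A1 overlaps in all 4 groups.

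Among the fibrillar chains, 5 of 10 were called higher in atrium in both groups, and these were COL1A1, COL1A2, COL3A1, COL5A1 and COL5A2. Over all tested probe sets 14.7% were called higher after uninephrectomy and 11.2% in sham dogs. Of the 10, 1 was called lower after uninephrectomy and 0 in sham dogs, against 12.5% and 9.62%. COL1A1, the alpha-1 chain of type I collagen, had 10.60, 11.81, 10.99, 11.61 and 10.74 in atria after uninephrectomy, against 9.44, 8.63, 9.46, 9.63 and 9.23 in the ventricles. In sham dogs it had 9.75, 11.18, 10.39, 11.31 and 11.72 in atria, against 9.24, 9.55, 9.26, 9.69 and 9.52 in ventricles. No atrial array overlapped a ventricular one in either group, and the lowest sham atrium (array 1, 9.75) lay close to the highest sham ventricle (9.69). The difference was 1.87 ± 0.31 (SE, a 3.66-fold higher signal, adjusted p = 0.000181) after uninephrectomy and 1.42 ± 0.31 (2.68-fold, adjusted p = 0.00273) in sham dogs.

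COL1A2, the partner chain of COL1A1 in the type I trimer, had 10.68, 11.52, 10.68, 11.29 and 10.60 in atria after uninephrectomy, against 9.26, 8.82, 9.36, 9.13 and 9.38 in the ventricles. The sham atria had 9.93, 10.64, 10.14, 10.94 and 11.06, against 9.30, 9.33, 8.71, 9.15 and 8.79 in sham ventricles. Again the chambers did not overlap. COL1A2 was 3.39-fold higher in atrium after uninephrectomy (1.76 ± 0.22, adjusted p = 1.06e-05) and 2.8-fold higher in sham dogs (1.49 ± 0.22, adjusted p = 8.91e-05).

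COL3A1 encodes the only chain of type III collagen, which co-assembles with type I in distensible tissue. Its atrial values after uninephrectomy were 11.43, 12.13, 12.17, 12.29 and 11.80, against 10.37, 9.98, 10.50, 10.38 and 10.69 in the ventricles, with no overlap. In sham dogs the atria had 10.26, 11.96, 11.31, 12.31 and 12.60, against 10.06, 10.48, 10.11, 10.80 and 10.27 in ventricles. There, atrial array 1 (10.26) fell inside the ventricular range, so the sham chambers overlapped, and sham atria spread most widely (SD 0.93). The difference was 1.58 ± 0.32 (adjusted p = 0.00105) after uninephrectomy and 1.35 ± 0.32 (adjusted p = 0.00491) in sham dogs. All 5 probe sets of COL3A1 had a positive difference in both groups, and 5 and 4 of them were called.

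Of the type V chains, which nucleate and limit type I fibrils, COL5A1 and COL5A2 were called and COL5A3 was not. COL5A2 had 9.46, 10.47, 9.52, 9.87 and 9.82 in atria after uninephrectomy, against 8.48, 8.38, 8.71, 8.38 and 8.37 in the ventricles. Sham atria had 8.78, 9.64, 8.89, 9.76 and 9.92, against 8.66, 8.63, 8.37, 8.57 and 8.10 in sham ventricles. The chambers did not overlap in either group, and both probe sets of COL5A2 were called in both. Its difference was 1.37 ± 0.21 (adjusted p = 9.98e-05) after uninephrectomy and 0.93 ± 0.21 (adjusted p = 0.00384) in sham dogs.

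COL5A1 had 7.30, 7.51, 7.33, 7.71 and 7.10 in atria after uninephrectomy, against 6.35, 6.24, 6.60, 6.00 and 6.20 in the ventricles. The sham atria had 6.37, 7.20, 6.43, 7.44 and 7.76, against 6.38, 6.50, 5.83, 6.28 and 6.44 in sham ventricles. Sham atrial arrays 1 and 3 lay within the range of the sham ventricles, while the uninephrectomy groups did not overlap. The difference was 1.11 ± 0.22 (adjusted p = 0.000957) after uninephrectomy and 0.75 ± 0.22 (adjusted p = 0.02) in sham dogs. The sham call was lost without sham atrial array 4 (0.65, adjusted p = 0.0584) or 5 (0.57, 0.0617) or sham ventricular array 3 (0.64, 0.0561), and with the 3' gap as a covariate (0.68, 0.0507). Of its 3 tested probe sets only the brightest was called higher, and a dim one was called lower after uninephrectomy (-0.25).

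Of the other fibrillar genes COL11A2, a minor fibrillar chain best known from cartilage, did not pass in either group (0.09 ± 0.12, adjusted p = 0.61, and -0.03 ± 0.12, adjusted p = 0.898, in sham dogs). COL2A1, the cartilage type II chain, was dim and was called lower in atrium after uninephrectomy, with 2.16, 2.18, 2.23, 2.33 and 2.22 in atria against 2.52, 2.50, 2.47, 2.41 and 2.46 in ventricles (difference -0.25 ± 0.06, adjusted p = 0.00399). The mean of its probe sets gave -0.04 (adjusted p = 0.574). All these values lie near the bottom of the scale, and the arrays did not overlap (1 of 32 collagens with the atrium lower, against 9.57% of probe sets). In sham dogs its difference was -0.07 ± 0.06 (adjusted p = 0.446). The remaining fibrillar genes, the type V chain COL5A3, COL24A1 and COL27A1, were dim, with differences between 0.09 and 0.32 after uninephrectomy and between 0.09 and 0.53 in sham dogs, none called.

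Basement membrane chains did not move together. COL4A1 and COL4A2, the chains of the type IV trimer found in nearly every basement membrane, showed no atrial excess, whereas COL4A6, known from smooth muscle basement membranes together with COL4A5, was higher in atrium. The genes of each pair, COL4A1 with COL4A2, COL4A3 with COL4A4 and COL4A5 with COL4A6, are neighbours in the RefSeq annotation of the wolf (assembly mCanLup2.hap1), as in other mammals. COL4A4, a chain of the trimer best known from kidney, was not called in either group (-0.14 ± 0.10, adjusted p = 0.317, and 0.01 ± 0.10, adjusted p = 0.949, in sham dogs). COL4A6 had 4.51, 4.98, 4.96, 5.75 and 5.35 in atria after uninephrectomy, against 3.50, 3.08, 3.04, 2.84 and 3.12 in the ventricles. Sham atria had 4.79, 5.64, 3.97, 5.76 and 5.65, against 3.13, 3.39, 3.76, 3.36 and 3.13 in sham ventricles. The chambers did not overlap, with sham atrial array 3 (3.97) nearest to the ventricles. COL4A6 was 3.98-fold higher in atrium after uninephrectomy (1.99 ± 0.29, adjusted p = 4.19e-05) and 3.49-fold higher in sham dogs (1.81 ± 0.29, adjusted p = 0.000155), by the 1 of its 2 probe sets that passed the filter.

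COL4A5 was dim, with 2.04 ± 0.12 in atria and 1.66 ± 0.11 in ventricles after uninephrectomy, and 2.09 ± 0.23 and 1.77 ± 0.12 in sham dogs (SD, n = 5). It was called higher in atrium in both, by 0.39 ± 0.10 (adjusted p = 0.00524) and 0.32 ± 0.10 (adjusted p = 0.0225). Its mean over all arrays, 1.89, was just above the filter's 1.87, and both ventricular means lay below that value. The gene thus entered the test through the atria, where it was higher, and its calls carry that limit. The sham call was lost without sham atrial array 4 (0.26, adjusted p = 0.0692) or 5 (0.26, 0.0691), without sham ventricular array 1 (0.29, 0.0561) or 2 (0.28, 0.0563), with the 3' gap as a covariate (0.29, 0.0533) and with arrays shifted to 1 median (0.24, 0.0691).

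COL4A1 had 10.19, 10.28, 10.74, 10.38 and 10.43 in atria after uninephrectomy, against 10.71, 10.56, 10.33, 10.53 and 10.49 in the ventricles. In sham dogs the atria had 10.25, 10.09, 10.13, 10.61 and 10.71, against 10.44, 10.42, 10.04, 10.43 and 10.54 in ventricles. These ranges overlapped in both groups. The 95% interval of the difference was -0.39 to 0.15 after uninephrectomy (estimate -0.12, adjusted p = 0.539) and -0.29 to 0.26 in sham dogs (estimate -0.02, adjusted p = 0.951), so a difference of the size seen for COL1A1 lies outside both intervals.

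COL4A2 had 9.13, 9.27, 9.47, 9.14 and 9.17 in atria after uninephrectomy, against 9.77, 9.50, 9.51, 9.89 and 9.28 in the ventricles. Sham atria had 8.99, 9.02, 8.95, 9.26 and 9.34, against 9.33, 9.55, 9.02, 8.94 and 9.35 in sham ventricles. All groups overlapped their counterpart in the other chamber. It was called lower in atrium after uninephrectomy (-0.35 ± 0.13, adjusted p = 0.0476), as was its second probe set (-0.69), and was -0.12 ± 0.13 (adjusted p = 0.547) in sham dogs. That call sat at the threshold. It remained when sham atrial array 5, sham ventricular array 2, 3 or 4, atrial array 3 after uninephrectomy or ventricular array 5 after uninephrectomy was left out, and was lost without any 1 of the other 14 arrays (-0.37 to -0.28, adjusted p 0.0501 to 0.131).

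Among the other collagens COL14A1 showed the widest chamber difference of all 32 tested genes. It encodes a FACIT that binds fibril surfaces and is known from fibroblasts of dense connective tissue. COL14A1 had 7.92, 8.15, 8.20, 8.17 and 7.71 in atria after uninephrectomy, against 4.81, 3.05, 4.84, 2.44 and 3.36 in the ventricles. The sham atria had 6.89, 7.76, 7.09, 7.44 and 7.81, against 3.91, 3.36, 5.02, 2.97 and 2.30 in sham ventricles. The atria were tightly grouped, while ventricular arrays ranged over more than 2 log2 units in each surgery group. The difference was 4.33 ± 0.46 (20.1-fold, adjusted p = 1.41e-06) after uninephrectomy and 3.88 ± 0.46 (14.8-fold, adjusted p = 6.64e-06) in sham dogs. Of its 7 tested probe sets 7 were called higher after uninephrectomy and 3 in sham dogs, and the differences spanned 0.31 to 4.33 and -0.04 to 3.88, so the size of the fold depends on the probe set.

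COL15A1, a multiplexin of the zone next to muscle and capillary basement membranes, had 5.62, 5.45, 6.16, 6.30 and 5.93 in atria after uninephrectomy, against 5.83, 5.37, 5.44, 5.44 and 5.99 in the ventricles. Its sham atria had 5.51, 6.20, 5.57, 6.26 and 6.22, against 5.51, 5.50, 5.10, 5.36 and 5.26 in sham ventricles. The sham chambers met at about 5.51 and were called different (0.60 ± 0.18, adjusted p = 0.0245), while the uninephrectomy groups overlapped and were not (0.28 ± 0.18, adjusted p = 0.29). Both chamber differences, set against each other, did not differ at the threshold (-0.33 ± 0.26, adjusted p = 0.9999). The sham call was lost without sham atrial array 2 (0.54, adjusted p = 0.0640), 4 (0.53, 0.0678) or 5 (0.54, 0.0660), without sham ventricular array 3 (0.54, 0.0595) or 5 (0.58, 0.0529), after quantile normalization (0.46, 0.0744) and in the second probe set (0.21, 0.147).

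COL16A1, a FACIT, had 3.31, 4.35, 3.15, 4.07 and 3.33 in atria after uninephrectomy, against 2.98, 2.92, 2.86, 3.01 and 2.80 in the ventricles. Sham atria had 3.37, 3.45, 3.21, 3.53 and 3.64, against 2.99, 2.96, 3.02, 3.10 and 2.83 in sham ventricles. Neither pair of groups overlapped, and array 2 after uninephrectomy was the highest atrium. The gene was called higher in atrium after uninephrectomy (0.73 ± 0.17, adjusted p = 0.00377) and missed the threshold in sham dogs (0.46 ± 0.17, adjusted p = 0.0651). With the replicate number as a block on the sham arrays, which paired in these data, the sham difference passed (adjusted p = 0.0191). It also passed when atrial array 2 (adjusted p = 0.0171) or 3 (0.0439) of the uninephrectomized dogs was left out. The second probe set showed no such difference after uninephrectomy (0.06, adjusted p = 0.716).

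COL21A1, a FACIT described in vessel walls, was dim and was called higher in atrium in both groups, with 2.68 ± 0.26 in atria and 2.26 ± 0.07 in ventricles after uninephrectomy, and 2.79 ± 0.36 and 2.21 ± 0.10 in sham dogs (SD, n = 5). The difference was 0.42 ± 0.14 (adjusted p = 0.0325) and 0.58 ± 0.14 (adjusted p = 0.0064). Without any 1 of atrial arrays 4 and 5 or ventricular arrays 1 to 4 the call after uninephrectomy was lost (0.35 to 0.42, adjusted p 0.0579 to 0.0905), as it was with arrays shifted to 1 median (0.34, 0.0803). COL20A1, also a dim FACIT, was called lower in atrium after uninephrectomy (-0.23 ± 0.07, adjusted p = 0.0213), a call lost without atrial array 3 or 4 or ventricular array 2 after uninephrectomy (adjusted p 0.0532 to 0.0664) and in the second probe set (-0.16, 0.0923). COL2A1 and COL20A1 were named after their values were seen. COL12A1, the FACIT most similar to COL14A1, was not called in either group (0.31 ± 0.22, adjusted p = 0.31, and 0.27 ± 0.22, adjusted p = 0.428).

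The beaded-filament chains showed no chamber difference that passed. COL6A1 differed by 0.19 ± 0.08 (adjusted p = 0.0988) after uninephrectomy and -0.04 ± 0.08 (adjusted p = 0.813) in sham dogs. Without atrial array 4 the uninephrectomy difference passed (0.24, adjusted p = 0.0283). COL6A3 differed by -0.09 ± 0.11 (adjusted p = 0.573) and -0.04 ± 0.11 (adjusted p = 0.828). COL6A2 was not analysed here. The other collagens that were tested and are not named above, the FACIT genes COL9A1, COL19A1 and COL22A1, the transmembrane genes COL13A1, COL17A1, COL23A1 and COL25A1, the network-forming COL10A1 and the unclassed COL26A1, had differences between -0.18 and 0.27 in both groups, none called. COL26A1 came nearest (-0.18 in sham dogs, adjusted p = 0.0568) and was called lower in sham atrium once arrays were shifted to 1 median (-0.26, adjusted p = 0.0152) or quantile normalized (-0.21, 0.0271), with the replicate number as a random block (-0.18, 0.0445), or without sham atrial array 3 (-0.22, 0.0340) or sham ventricular array 4 (-0.22, 0.0318). After uninephrectomy COL22A1 was called lower with arrays shifted to 1 median (-0.26, adjusted p = 0.0371), by the mean of its probe sets (-0.16, 0.0411) and in the second probe set (-0.24, 0.0372), and COL10A1 was called higher without atrial array 5 (0.25, 0.00422).

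**Figure D2:**
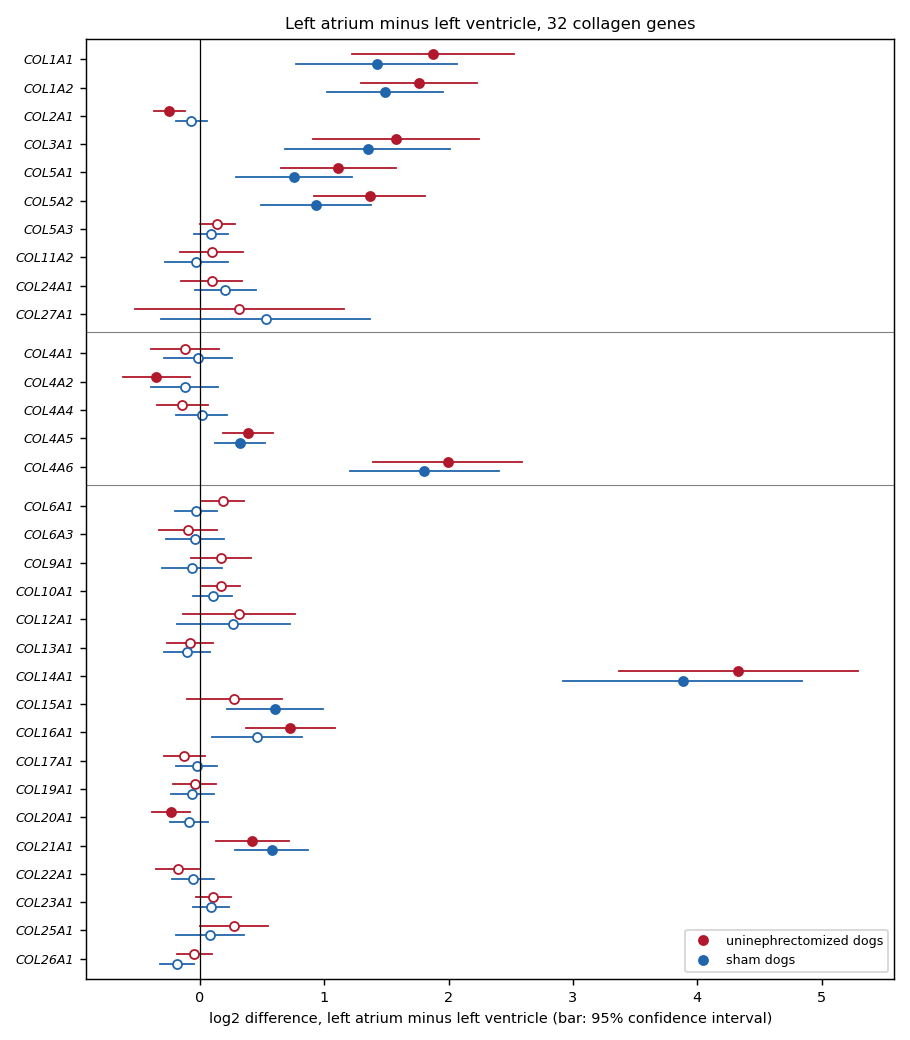
Log2 difference, left atrium minus left ventricle, of the 32 tested collagen genes with 95% confidence intervals, for uninephrectomized (red, upper) and sham dogs (blue, lower), in blocks of fibrillar, basement membrane and other collagens from the top. Filled points have an adjusted p below 0.05, and COL14A1 lies farthest to the right at 4.33 and 3.88.

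The 9 genes called higher in atrium in both surgery groups were ranked over the arrays of each group. In sham atria array 1 was the lowest for 7 of these 9 genes and array 5 the highest for 7. Atrial array 1 after uninephrectomy was the lowest for 5 of 9, and no array of that group was the highest for more than 3. No ventricular array was lowest or highest for more than 3. The mean signal of 11 fibroblast markers was 7.03 in sham atrial array 1 and 7.39 in array 5, the highest of the sham atria, and the lowest was array 3 (6.91). The 3' gap was 0.97 in array 1 and 1.11 in array 5. Their part in the spread was not tested.

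The chosen pairs of collagen chains that share a fibril or a molecule varied together from atrium to atrium. Correlations of other gene pairs on the array were not computed, so this is not shown to be particular to such chains. Sham atrial array 1 was also the lowest, and array 5 the highest, for COL14A1 and COL21A1. Each array's deviation from the mean of its group was correlated over the 10 arrays of a chamber for 4 gene pairs (8 relations, 100000 permutations, two-sided). The permutations shuffled arrays across the surgery groups and did not keep the centring or the unequal spread of each group. Their p-values are therefore approximate and may be too small. In atria COL1A1 followed COL1A2 with Pearson's r = 0.97 (permutation p = 2e-05, adjusted 0.00016) and Spearman's rho = 0.90 (p = 0.00078, adjusted 0.00624). It was 0.96 without the 2 arrays farthest from the median. Within groups it was 0.96 after uninephrectomy and 0.98 in sham dogs.

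COL1A1 followed COL3A1 in atria with r = 0.92 (permutation p = 0.0001, adjusted 0.0004) and rho = 0.87 (p = 0.00229, adjusted 0.00916). Without the 2 farthest arrays r was 0.84, and within groups it was 0.79 after uninephrectomy and 0.99 in sham dogs. For COL4A1 and COL4A2 atrial r was 0.90 (permutation p = 0.00153, adjusted 0.00408) and rho 0.75 (p = 0.0169, adjusted 0.0451). Leaving out the 2 farthest arrays gave 0.75, and within groups r was 0.82 and 0.96. COL1A1 and COL4A1, from different matrices, gave r = 0.39 (permutation p = 0.259, adjusted 0.296) and rho = 0.41 (p = 0.249, adjusted 0.332), and 0.14 without the 2 farthest arrays. Within groups this was -0.08 after uninephrectomy and 0.62 in sham dogs. Whether these correlations differ from each other was not tested.

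In ventricles the same pairs gave lower values. COL1A1, COL1A2, COL3A1 and COL4A1 also spread less there, which by itself can lower r. For COL1A1 the ventricular SDs were 0.39 after uninephrectomy and 0.20 in sham dogs, against 0.53 and 0.79 in atria. COL4A2 spread more in ventricles (0.24 and 0.25, against 0.14 and 0.17). The part of the spread in the lower values was not tested. COL1A1 with COL3A1 had r = 0.70 (permutation p = 0.0209, adjusted 0.0418) and rho = 0.68 (p = 0.035, adjusted 0.07), and r over both groups fell to 0.36 without the 2 farthest arrays. Within groups it was 0.66 after uninephrectomy and 0.94 in sham dogs. COL1A1 with COL1A2 had r = 0.46 (permutation p = 0.177, adjusted 0.236) and rho = 0.18 (p = 0.633, adjusted 0.723). Within groups r was 0.71 after uninephrectomy and 0.21 in sham dogs for that pair, and 0.38 without the 2 farthest arrays. COL4A1 with COL4A2 had r = 0.47 (permutation p = 0.176, adjusted 0.236) and rho = 0.42 (p = 0.233, adjusted 0.332), with 0.45 and 0.49 within groups and 0.35 without the 2 farthest arrays. COL1A1 with COL4A1 had r = 0.13 (permutation p = 0.699, adjusted 0.699) and rho = 0.04 (p = 0.919, adjusted 0.919), with -0.12 and 0.53 within groups and 0.51 without the 2 farthest arrays. All probe sets of an array share its RNA sample and its scaling.

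**Figure D3:**
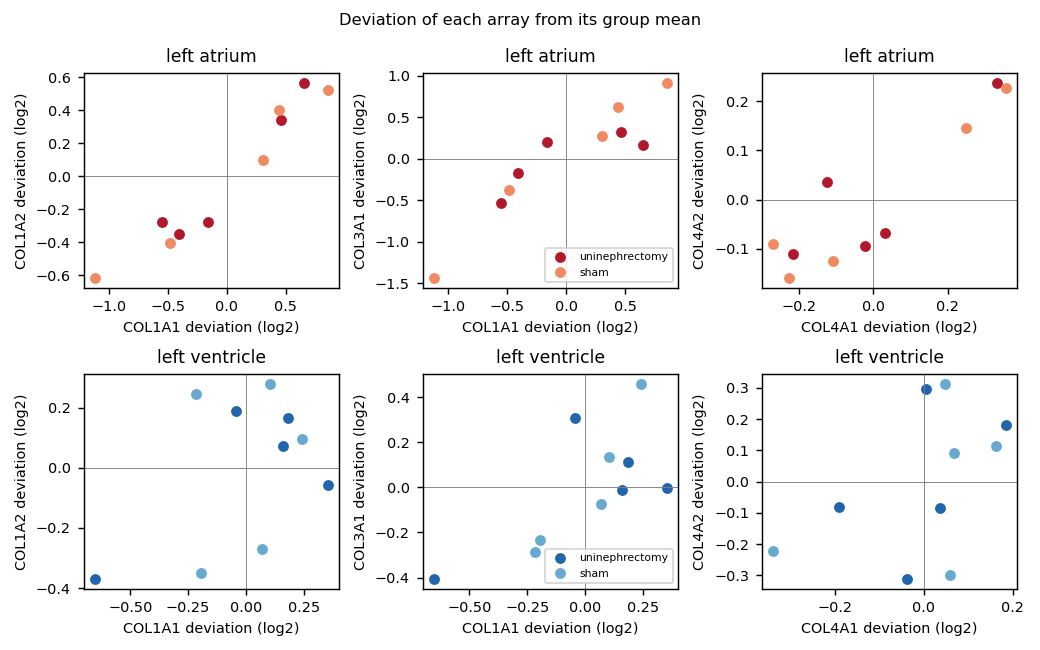
Deviation of each array from the mean of its group (log2) for 3 pairs of collagen genes, in the left atrium (top) and left ventricle (bottom), with uninephrectomy arrays in the darker and sham arrays in the lighter shade. The atrial points of COL1A1 with COL1A2 lie along a line (r = 0.97), and those of the ventricle scatter (r = 0.46); axis ranges differ between panels.

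No collagen gene passed the threshold between uninephrectomized and sham dogs. Of 32 tested genes 0 were called between uninephrectomized and sham dogs in atrium, in ventricle or in the difference between chambers, by limma, and 0% of all tested probe sets were called in any of these. At an unadjusted p below 0.05 there was 1 of 32 genes in each, against 6.69% of probe sets in atrium, 6.67% in ventricle and 2.97% in the difference. No gene had groups that did not overlap in atrium (0.436% of probe sets higher, 0.493% lower) or ventricle (0.396% and 0.596%). The median difference of the 32 genes was 0.03 in atrium and 0.01 in ventricle, against -0.0030 and -0.0048 over all tested probe sets.

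In atrium the 6 not-dim fibrillar chains all had a positive difference after uninephrectomy, from 0.10 to 0.43 with a median of 0.31, and none passed. Without sham atrial array 1 only 4 of the 6 were positive, with a median of 0.11: COL1A1 was at -0.00075, COL3A1 at -0.085 and COL5A1 at 0.18. Without any 1 of the other 9 atrial arrays all 6 were positive, with medians from 0.19 to 0.52. In ventricle 2 of the 6 were positive, with a median of -0.01. COL5A2 averaged 9.83 ± 0.40 in atria after uninephrectomy and 9.40 ± 0.52 in sham atria (SD, n = 5), a difference of 0.43 with a 95% interval of -0.01 to 0.88 (adjusted p = 0.761 by limma). COL1A2 differed by 0.41 (-0.06 to 0.88, adjusted p = 0.775) and COL5A1 by 0.35 (-0.11 to 0.81, adjusted p = 0.795). Each of these intervals includes 0. For COL1A1 and COL3A1 the atrial differences were 0.28 (-0.37 to 0.93) and 0.27 (-0.39 to 0.94). The 10 atria overlapped for each, with the sham atria spanning 9.75 to 11.72 for COL1A1 and the atria after uninephrectomy 10.60 to 11.81.

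The atrial gene with the smallest p was COL24A1, a dim fibrillar gene, at -0.25 ± 0.12 (adjusted p = 0.744 by limma), followed by dim COL6A1 at 0.17 ± 0.08 (adjusted p = 0.749). COL14A1 differed by 0.63 ± 0.46 (adjusted p = 0.812). The atria of both surgery groups overlapped for all of these.

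In ventricle COL4A2 had the smallest p. Its values after uninephrectomy, 9.77, 9.50, 9.51, 9.89 and 9.28, overlapped the sham values, 9.33, 9.55, 9.02, 8.94 and 9.35, and the difference was 0.35 ± 0.13 (adjusted p = 0.659 by limma). With the 3' gap, which was higher in sham ventricles, as a covariate the difference was 0.22 (adjusted p = 0.999). Its trimer partner COL4A1 differed by 0.15 ± 0.13 (adjusted p = 0.844). The next 4 were dim: COL22A1 at 0.15 ± 0.08 (adjusted p = 0.758), COL2A1 at 0.10 ± 0.06, COL26A1 at -0.11 ± 0.07 and COL9A1 at -0.18 ± 0.11.

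The surgery effect in atrium minus that in ventricle was nearest to the threshold for COL2A1, at -0.18 ± 0.08 (adjusted p = 0.9999 by limma). COL6A1 followed at 0.22 ± 0.11, COL26A1 at 0.14 ± 0.09, COL5A2 at 0.43 ± 0.30 and COL9A1 at 0.23 ± 0.16. For the 5 fibrillar chains called between chambers the atrium-minus-ventricle difference was larger after uninephrectomy than in sham dogs, by 0.23 (COL3A1) to 0.45 (COL1A1), and none of these passed. Without sham atrial array 1 the direction turned for COL3A1 (-0.13), and for COL1A1 the value was 0.17.

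**Figure D4:**
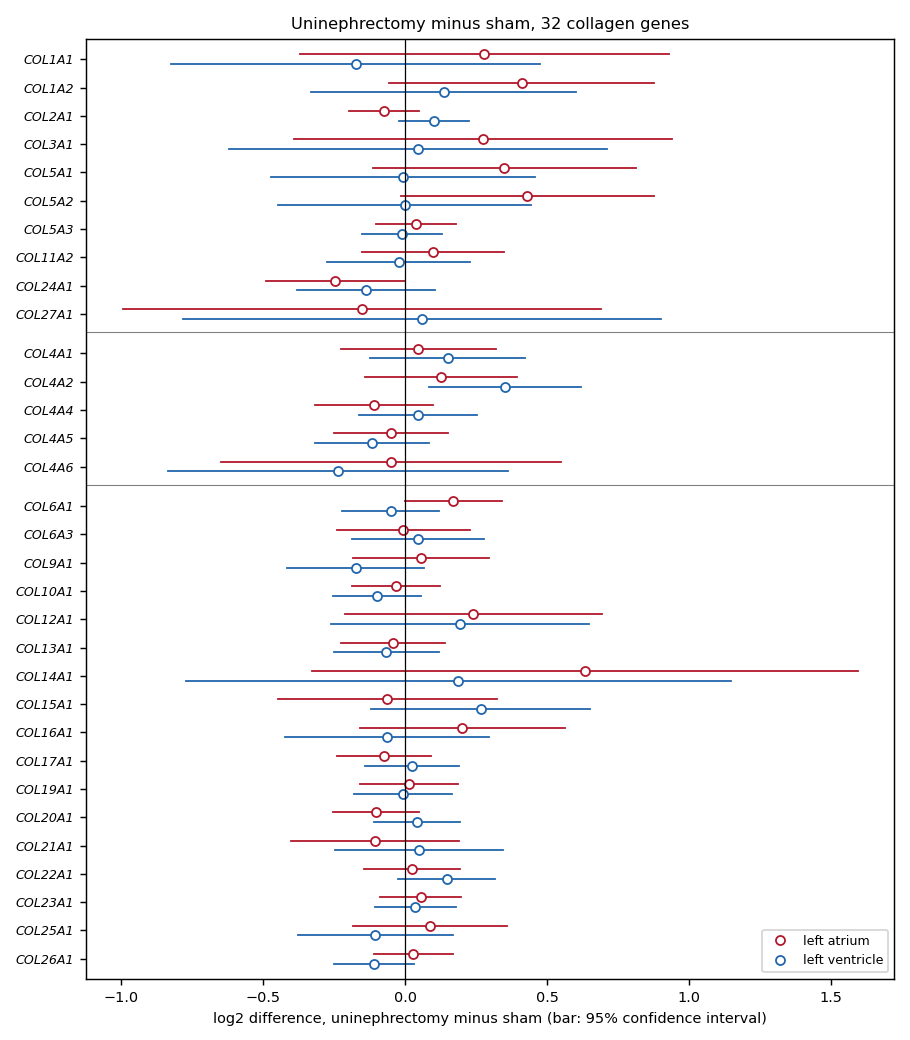
Log2 difference, uninephrectomy minus sham, of the 32 tested collagen genes with 95% confidence intervals, in left atrium (red, upper) and left ventricle (blue, lower), in blocks of fibrillar, basement membrane and other collagens from the top. All points are open because no gene had an adjusted p below 0.05, and the widest intervals belong to COL14A1 and COL27A1.

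A single atrium after uninephrectomy, array 2, stood apart in POSTN, COMP and CILP. Among collagens it held the highest COL1A1 (11.81), COL1A2 (11.52), COL5A2 (10.47), COL12A1 (4.99) and COL16A1 (4.35) of its group. Array 4 was close for COL1A1 (11.61) and COL1A2 (11.29), and was the highest for COL3A1 (12.29) and COL5A1 (7.71). Of the 9 genes called higher in atrium in both surgery groups, arrays 2 and 4 were each the highest for 3. Array 2 had POSTN (periostin) at 8.85 where the other 4 had 2.18 to 4.79, COMP at 9.23 against 3.89 to 4.80, and CILP at 7.96 against 3.12 to 5.49. POSTN, COMP and CILP, matrix proteins of activated fibroblasts and fibrous tissue, were picked out for this after their values were seen. Without that array the atrial surgery difference was 0.27 for COL5A2, 0.27 for COL1A2 and 0.11 for COL1A1, against 0.43, 0.41 and 0.28 with it, and 0 collagen genes were called either way. The part of this sample's makeup in the values was not tested.

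Genes that make, process and bind collagen were read from lists of related genes, with no test of a list as a whole. Of all tested probe sets, 14.7% were called higher and 12.5% lower after uninephrectomy, and 11.2% and 9.62% in sham dogs. Among the prolyl and lysyl hydroxylation genes, 2 of 12 tested were called higher in atrium after uninephrectomy and 3 of 12 in sham dogs, 0 lower, with medians of 0.18 and 0.17. CRTAP, the cofactor of prolyl 3-hydroxylase, was 0.90 ± 0.12 (adjusted p = 1.81e-05) and 0.58 ± 0.12 (adjusted p = 0.00166) higher. Its partner PPIB, a prolyl isomerase, was 0.67 ± 0.12 (adjusted p = 0.000473) and 0.53 ± 0.12 (adjusted p = 0.00483) higher. The prolyl 4-hydroxylase chains P4HA1 and P4HA2 did not pass (0.46 and 0.35 after uninephrectomy, adjusted p = 0.0639 and 0.0701).

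In the folding and export list 5 of 11 were called higher after uninephrectomy and 3 of 11 in sham dogs, 0 lower, with medians of 0.24 and 0.20. SEC24D, a coat protein of the vesicles that carry procollagen out of the endoplasmic reticulum, had 6.21, 7.20, 6.41, 7.18 and 7.07 in atria after uninephrectomy, against 5.17, 5.15, 5.09, 4.50 and 5.00 in the ventricles. The groups did not overlap, and the difference was 1.83 ± 0.23 (adjusted p = 8.45e-06), with 1.25 ± 0.23 (adjusted p = 0.000572) in sham dogs. MIA3 (TANGO1), the receptor that loads procollagen into those vesicles, was 0.71 (adjusted p = 0.000171) and 0.48 (adjusted p = 0.00595) higher, and the coat protein SEC31A 0.36 and 0.22. FKBP14, a prolyl isomerase, was called after uninephrectomy (0.35, adjusted p = 0.00826).

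For processing and cross-linking, 3 of 8 were called higher and 1 lower in each surgery group, with medians of 0.41 and 0.21. The 1 of 8 called lower was near the share of all tested probe sets (12.5% and 9.62%). BMP1, the proteinase that removes the procollagen C-propeptide, was 1.18 ± 0.15 (adjusted p = 8.08e-06) and 0.75 ± 0.15 (adjusted p = 0.00101) higher in atrium. Its enhancer PCOLCE2 was 1.45 (adjusted p = 0.000151) and 1.12 (adjusted p = 0.002) higher, and PCOLCE was called after uninephrectomy (1.79, adjusted p = 0.000832, and 0.96, adjusted p = 0.0589, in sham dogs), with 0.83 (adjusted p = 0.9999) for the difference between the groups. TGM2, transglutaminase 2, which also has roles in endothelium, was lower in atrium, with differences of -0.70 (adjusted p = 0.00797) and -0.97 (adjusted p = 0.000922).

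Of the degradation genes, 2 of 7 were called higher and 0 lower in both groups. MMP2, a gelatinase, had 4.66, 5.77, 4.60, 5.91 and 4.82 in atria after uninephrectomy, against 3.52, 3.89, 2.93, 3.29 and 4.19 in ventricles, a difference of 1.59 (adjusted p = 0.00119), and 0.99 (adjusted p = 0.0364) in sham dogs. FAP, a fibroblast surface protease that cleaves denatured collagen, differed by 2.15 (adjusted p = 0.000325) and 1.40 (adjusted p = 0.012). The medians of the 7 were 0.01 and 0.08.

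Receptors had 3 of 6 called higher after uninephrectomy and 2 of 6 in sham dogs, 0 lower, with medians of 0.56 and 0.39. DDR1, a receptor tyrosine kinase for fibrillar and type IV collagen, had 7.32, 7.45, 7.37, 6.69 and 6.83 in atria after uninephrectomy, against 5.69, 5.38, 5.47, 5.90 and 5.49 in ventricles, with no overlap (1.55 ± 0.20, adjusted p = 1.64e-05, and 1.81 ± 0.20, adjusted p = 3.49e-06, in sham dogs). ITGA2, the alpha-2 integrin chain that prefers type I collagen, differed by 1.03 and 0.85 (adjusted p = 3.61e-06 and 4.35e-05). ITGA1, which prefers type IV, was called after uninephrectomy (1.24, adjusted p = 0.00187) and had 0.59 (adjusted p = 0.134) in sham dogs. Between uninephrectomized and sham dogs 0 genes of these 5 lists were called. In atrium all 8 processing genes had a positive surgery difference, with a median of 0.20 and none past the threshold, and in ventricle 3 of 8 were positive, with a median of -0.03. Of all 30047 tested probe sets, 14708 were positive in atrium and 14559 in ventricle. Whether the signs of these 8 genes hold without single arrays was not examined. The atrial surgery difference of SEC24D was 0.68 ± 0.23 (adjusted p = 0.663) and that of PCOLCE 0.85 ± 0.35 (adjusted p = 0.695).

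**Figure D5:**
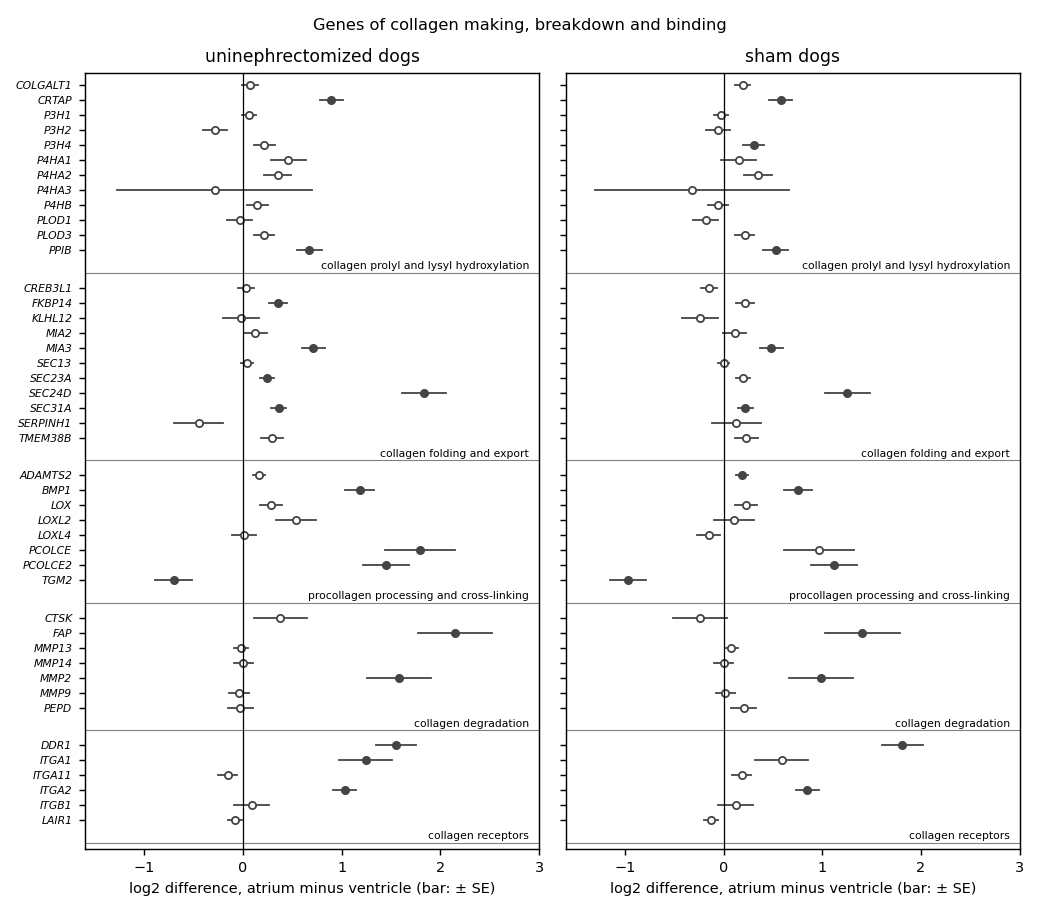
Log2 difference, atrium minus ventricle, with SE, of the tested genes in 5 lists of collagen-related genes, in uninephrectomized (left) and sham dogs (right). Filled points have an adjusted p below 0.05, and SEC24D, PCOLCE2, FAP and DDR1 lie to the right of 1 in both panels.

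Markers of other cells moved with the chamber as well, where 14.7% of all probe sets were called higher and 12.5% lower in atrium after uninephrectomy, and 11.2% higher and 9.62% lower in sham dogs. Of 10 tested fibroblast markers 7 were called higher in atrium after uninephrectomy and 5 in sham dogs, 0 lower, with OGN at 3.53 and 3.57, FBLN1 at 2.49 and 2.32 and DPT at 1.07 and 0.68. The mean over the 11 fibroblast markers ranged over 7.09 to 7.58 in atria after uninephrectomy, 6.91 to 7.39 in sham atria, 6.15 to 6.51 in ventricles after uninephrectomy and 6.08 to 6.46 in sham ventricles. Atrial cardiomyocyte markers had 5 of 5 called higher and ventricular ones 4 of 4 lower in both groups. General cardiomyocyte markers had 4 of 7 called lower in atrium in both groups, with 0 higher (TNNI3 -0.40 and -0.38). Endothelial markers had 2 and 3 of 9 called lower and 0 higher (VWF -0.46 and -0.59).

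Smooth muscle and pericyte markers split, with 3 of 9 higher and 5 lower after uninephrectomy, and 2 higher and 1 lower in sham dogs. TAGLN and MYH11 of smooth muscle were 2.64 and 1.47 higher after uninephrectomy and 2.42 and 1.23 higher in sham dogs, while the pericyte marker RGS5 was -0.75 after uninephrectomy. Myofibroblast markers had 4 of 5 called higher after uninephrectomy and 2 of 5 in sham dogs. They include POSTN, COMP and CILP, which stood apart in atrial array 2 after uninephrectomy. In that group the marker mean per array had a median of 5.97 and a highest value of 9.08. Endocardial markers had 2 of 4 called higher in both surgery groups, with NPR3 at 2.86 and 2.20. Of the 4 endocardial markers 2 had a negative difference in each group, and 0 were called lower. The adipocyte marker ADIPOQ was 3.48 and 3.83 higher in atrium, with 1 of 7 and 3 of 7 adipocyte markers called higher and 0 lower. The adipocyte markers split in sign, with 3 of 7 negative in each group and medians of 0.25 and 0.25. Of the macrophage markers 1 of 8 was called higher after uninephrectomy and 0 in sham dogs, of 2 tested mesothelial markers 0, and of 3 Schwann cell and neuronal markers 1 higher and 1 lower after uninephrectomy and 1 higher in sham dogs. Of 5 cartilage and valve markers COMP was called higher after uninephrectomy and 0 in sham dogs, with array 2 after uninephrectomy at 9.23 and the other 9 atria at 3.42 to 4.80. The part of these cell types in the collagen differences was not tested.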

How the data were processed

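RNA (total RNA by Trizol, 100 ng labelled by IVT Express, per the labels' protocols) from 4 groups of 5 samples was hybridised to 20 Affymetrix canine arrays. The authors deposited log2 signals per probe set, and their summarisation and normalization are not given in the sources used here. An unknown background correction or scaling step could compress dim signals and so understate differences of dim genes. Values were used as deposited. Of 43035 probe sets (111 of them controls), 29264 had 1 gene symbol in the array's annotation, 439 several and 13332 were not listed in it. Probe sets below the 30th percentile of mean signal (log2 1.87) were left out. The remaining 30047 were fitted with limma 3.58.1 in R 4.3.3 (4 group means, all 20 arrays, lmFit and eBayes) with Benjamini-Hochberg adjustment over all of them, and the fit was tested on simulated data. Correlations used permutations in scipy 1.17.1 with numpy 2.4.6.

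The members and gene lists were chosen with earlier results of these data known. Array values were given for the main type I, III, IV, V and VI chains, the 10 genes with the smallest adjusted p in the sham chamber comparison, called genes with a fold of at least 1.5 and the 5 with the smallest p in each surgery comparison; other genes of lists were limited to 4 of a pathway and 3 of a cell type.

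Atrial and ventricular samples share numbers. Over tested probe sets the same-numbered sham arrays deviated together (r = 0.46, 0.23, 0.37, 0.29 and 0.21), a pairing that comes from the data. The main fit used no replicate block, so its p-values treat these arrays as independent. Pairing entered only in the alternatives with a replicate block. Same-numbered arrays after uninephrectomy did not deviate together (r = -0.06, -0.07, 0.11, -0.24 and 0.10). Alternatives covered the filter, scaling, array weights, a mean-variance trend, the choice of probe set, the 3' gap, the arrays fitted, the replicate block and each array left out. The block on sham arrays alone, and leaving out each atrial array for all 6 not-dim fibrillar chains, were added after seeing the data.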

Additional observations from a re-analysis of the deposited data

Results flagged for a closer look

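In each group of 5 arrays the highest or lowest value was checked for a gap to its nearest neighbour of more than 0.71 of the group's range (Dixon's 95% critical value). Of 128 groups (32 genes in 4 groups) 9 passed, and chance alone gives about 1 in 20 groups. The largest gaps belonged to COL27A1, a dim fibrillar gene, at 4.14 in atrial array 4 after uninephrectomy, where the other 4 arrays had 2.09 to 2.26, and at 4.49 in sham atrial array 2, where the others had 2.07 to 2.39. COL4A1 was low in sham ventricular array 3, at 10.04 with the others at 10.42 to 10.54, and that array had the highest 3' gap (1.83), whose part was not tested.

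The other 6 were small in size. COL25A1 was high in ventricular array 5 after uninephrectomy (3.18, others 2.97 to 3.02) and low in sham ventricular array 2 (2.73, others 3.16 to 3.32). COL21A1 was high in ventricular array 5 after uninephrectomy (2.38, others 2.22 to 2.24). COL4A4 was high in sham atrial array 3 (3.32, others 3.11 to 3.17). COL20A1 was high in sham ventricular array 1 (2.51, others 2.19 to 2.25). COL6A1 was low in sham ventricular array 5 (2.43, others 2.64 to 2.69).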

How the results depend on the processing

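COL1A1, COL1A2, COL3A1, COL5A2, COL14A1 and COL4A6 were called higher in atrium in both surgery groups under every alternative run; COL4A6 has 1 tested probe set, so the second probe set gave it no value. The second brightest probe set, which only 16 genes have, gave 7 called genes after uninephrectomy and 5 in sham dogs, against 13 and 10. Other settings gave 10 to 13 and 8 to 12, and leaving out 1 array 10 to 13 and 7 to 11. The surgery comparisons and their difference gave 0 under every setting. With the replicate number as a fixed block there were 12 and 10 calls, as a random block 13 and 12 (COL16A1 and COL26A1 added in sham dogs), and as a fixed block on the sham arrays alone 11 in sham dogs (COL16A1 added). The fixed block on all arrays lost COL4A2 after uninephrectomy (-0.35, adjusted p = 0.0747). It changed no other call of a named collagen gene. Between surgery groups the numbers did not pair the samples (r = -0.18 to 0.35 in atrium and -0.11 to 0.14 in ventricle).

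Some signs turned, and the cause was not tested. The second probe set gave -0.10 for COL5A1 (surgery, atrium), against 0.35 with the brightest, -0.053 for COL26A1 (difference of surgery effects), 0.021 for COL4A1 (chamber, sham) and 0.056 for COL6A3 (chamber, uninephrectomy). Probe set means gave 0.056 for COL6A3 there and 0.089 for COL6A1 in sham dogs, and quantile normalization 0.010 for COL4A1 in sham dogs. Without 1 array the sham chamber difference spanned -0.10 to 0.051 for COL4A1, -0.081 to 0.0089 for COL6A1 and -0.12 to 0.016 for COL6A3. Dim signals limit what can be seen for 17 of 32 genes.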
